A study of Mus musculus with 12 samples.

Results

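The genes described here code for receptors of interleukins and interferons, most of them on the cell surface. They were measured on a single-colour array in mouse skin material taken without wounding and at set times after it. They were the probe sets whose gene symbol has the form of an interleukin receptor name, or begins with Ifnar or Ifngr, together with Il6st. They came to 45 probe sets of 38 genes, of 1246 probe sets and 909 named genes in the table. The genes Il1r2, Il10rb, Il20ra, Il20rb and Il22ra1 and the antagonist Il1rn were left out by the rule (6 probe sets), and the TNF receptor superfamily, Osmr and Lifr were not analysed here.

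There were 4 non-wounded samples, and wounded material gave 1 sample at 0 h, 2 samples at 30 min, 4 samples at 2 h and 1 sample at 4 h. All titles carry the prefix B6, and the sources used here give no genotype, age or sex. The sample labels name dendritic epidermal T cells, the resident gamma delta T cells of mouse epidermis, whereas the study's design describes RNA isolated from the entire epidermal layer, where keratinocytes predominate. The comparison of wounded with resting material was meant to find genes that respond early to injury of the skin.

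Most of these receptors work as pairs or larger sets of chains, in which a chain specific to the cytokine joins a chain that several cytokines share. The shared chains include Il2rg (the common gamma chain), Il6st (gp130), Il12rb1, Il1rap and Il17ra. Receptors of the class I and class II families signal through Janus kinases and STAT factors, those of the IL-1 family through MyD88, and those of the IL-17 family through the adaptor Act1. In skin, IL-1, IL-17, IL-22, IL-4, IL-13 and the interferons act on keratinocytes, and IL-2 and IL-15 receptors serve the T cells that live among them.

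All values below are deposited log2 values, in which a difference of 1 is a 2-fold difference. Of the 45 probe sets, 22 had a mean under the median of the table (4.20) and 9 had a mean under its lower quartile (3.20). Such dim values carry no detection call, so absence of the transcript and a weak signal cannot be told apart. Among the markers of the labelled cells, the activating receptor Klrk1 had a mean of 2.33 ± 0.04 at 2 h and 2.38 ± 0.12 in non-wounded samples (SD, n = 4 each). The T cell integrin chain Itgae averaged 4.99 ± 0.61 at 2 h and 5.32 ± 0.11 in non-wounded samples, and the adhesion molecule Cd2 averaged 5.40 ± 0.27 and 4.77 ± 0.22. The keratinocyte galectin Lgals7 averaged 12.03 ± 0.51 at 2 h and 12.08 ± 0.27 in non-wounded samples.

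Each group held 1 sample with the replicate number 1, and these 5 were unlike the 7 numbered 2 to 4. The SD over the 45 receptor probe sets was 1.17 to 1.52 in these 5 and 1.70 to 1.93 in the other 7. Dim receptors read higher and bright ones lower in them. Of 21 receptor probe sets under the table's median in the samples numbered 2 to 4, 18 were higher in the samples numbered 1, and of 24 over it, 16 were lower. Il13ra1, a subunit for IL-4 and IL-13, had 4.91, 8.11, 8.07 and 7.56 at 2 h and 5.21, 7.57, 8.22 and 8.33 in non-wounded samples, in the order of numbers 1 to 4, as in all lists below, so its number 1 samples lay more than 2 log2 units under the rest in both groups. For this reason each result is given over all samples, with a block for the replicate number, or over the samples numbered 2 to 4 alone where these differ. The 0 h and 4 h groups each hold only a sample numbered 1.

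None of the 45 receptor probe sets passed an adjusted p of 0.05 at 2 h against non-wounded samples (limma, 0.241% of all probe sets passed), nor with the replicate block (1.36% of all) or in the samples numbered 2 to 4 alone (3.05% of all). Without adjustment, 1 of 45 had a p under 0.05, against 4.65% of all probe sets. With the block there were 3 of 45 against 13.8%, and in the samples numbered 2 to 4 there were 8 of 45 against 18.5%. With array weights, which give samples with large residuals less weight, 5 of 45 passed (Ifnar2 and Il4ra higher, and Il15ra and both probe sets of Il1rap lower), against 10.4% of all; 13 of 45 (28.9%) then had an unadjusted p under 0.05, against 26.6% of all. The differences were small: the largest was -0.70, the receptor median was -0.05, against 0.03 over all probe sets, and 0 of 45 reached 1 in either direction, against 2.49% of all. The 95% interval of the difference lay within 2-fold either way for 36 of 45 probe sets, against 68.2% of all, and the wide intervals included those of Il13ra1, Il22ra2, Il6st and Ifngr1, whose number 1 samples lay far from the rest. In bulk material, fewer cells of a type and less RNA per cell cannot be told apart.

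**Figure D1:**
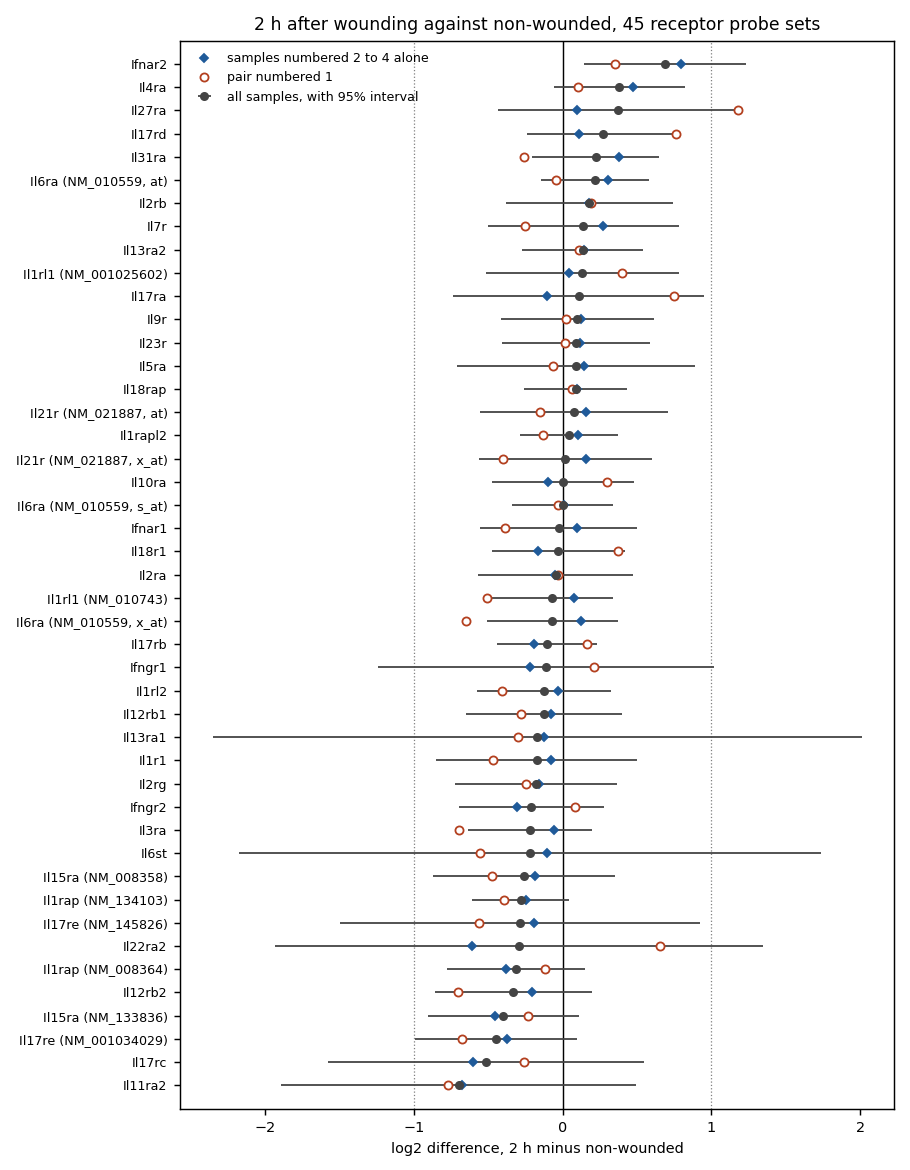
Log2 difference of each receptor probe set at 2 h minus non-wounded (x axis) for the 45 probe sets (rows), with the limma 95% interval over all samples (black), the samples numbered 2 to 4 alone (blue diamonds) and the pair numbered 1 (open circles). Ifnar2 is the highest row at 0.69 and its interval alone excludes 0, while Il11ra2 is the lowest at -0.70. Dotted lines mark a 2-fold difference.

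Of the interferon receptors, Ifnar2 was the one whose 2 h samples all lay above the non-wounded ones. Ifnar2 is the chain of the type I interferon receptor that binds interferon tightly, and Ifnar1 is its partner; Ifngr1 and Ifngr2 form the receptor of interferon gamma. Ifnar2 had values of 5.11, 5.41, 5.58 and 6.31 in the 2 h samples, against 4.76, 4.88, 4.95 and 5.07 in the non-wounded samples. The sample numbered 4 at 2 h was the highest, and every 2 h sample exceeded every non-wounded one, a pattern seen in 1 of 45 receptor probe sets and in 2.01% of all probe sets. Its mean was 5.60 ± 0.51 at 2 h and 4.92 ± 0.13 in non-wounded samples (SD, n = 4 each), a difference of 0.69 (1.61-fold, 95% interval 0.14 to 1.23). The limma adjusted p was 0.707, and 0.122 with the replicate block and 0.146 in the samples numbered 2 to 4 alone, so the difference did not pass in any of these 3 fits; with array weights it did (limma adjusted p = 0.029). Without the 2 h sample numbered 4 the difference was 0.45.

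The partner chain and the interferon gamma receptor gave no such pattern. Ifnar1 had 4.87, 5.75, 5.85 and 5.72 in the 2 h samples, against 5.26, 5.64, 5.69 and 5.71 in the non-wounded samples, a difference of -0.03 (interval -0.55 to 0.50). Ifngr2 had 6.59, 5.98, 5.92 and 6.20 in the 2 h samples, against 6.50, 6.58, 6.21 and 6.23 in the non-wounded samples, a difference of -0.21 (interval -0.70 to 0.28). Ifngr1 had 6.94, 8.38, 8.40 and 8.12 in the 2 h samples, against 6.73, 8.01, 8.79 and 8.77 in the non-wounded samples. The difference of Ifngr1 was -0.11, and it was 0.21 in the pair numbered 1 but -0.22 in the samples numbered 2 to 4, where the 2 groups overlapped. Whether Ifnar2 differed from the other 3 genes in its response was not tested.

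Ifnar2, Ifnar1 and Ifngr2 lie in a row on chromosome 16, with only Il10rb between Ifnar2 and Ifnar1, so their promoters are shown together with that of Il4ra, the other receptor gene higher in every same-numbered pair with an unadjusted p under 0.05 in the blocked fit. The 250 bases before the annotated start of each gene (RefSeq, GRCm38.p6, plus strand, 5′ to 3′) were searched on both strands for GGGCGG (the GC box of Sp1), TGANTCA (AP-1), TTCNNNGAA (the GAS element of STAT factors) and the NF-kB letters (GGG and TTTCC with any 2 bases between), and matches are in capitals.
Ifnar2: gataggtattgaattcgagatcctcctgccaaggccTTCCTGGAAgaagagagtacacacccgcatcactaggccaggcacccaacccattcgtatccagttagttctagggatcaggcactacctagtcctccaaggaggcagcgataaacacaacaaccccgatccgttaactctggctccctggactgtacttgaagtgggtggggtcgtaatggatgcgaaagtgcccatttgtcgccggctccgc
Ifnar1: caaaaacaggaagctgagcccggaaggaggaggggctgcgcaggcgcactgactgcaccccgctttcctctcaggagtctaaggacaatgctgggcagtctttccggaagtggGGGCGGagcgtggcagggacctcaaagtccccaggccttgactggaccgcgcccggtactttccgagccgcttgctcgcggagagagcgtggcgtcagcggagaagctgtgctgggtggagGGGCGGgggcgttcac
Ifngr2: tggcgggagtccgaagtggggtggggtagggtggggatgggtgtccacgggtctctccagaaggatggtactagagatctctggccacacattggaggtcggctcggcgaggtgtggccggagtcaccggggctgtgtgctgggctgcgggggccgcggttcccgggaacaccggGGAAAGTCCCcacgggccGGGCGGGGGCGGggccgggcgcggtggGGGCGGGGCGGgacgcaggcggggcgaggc
Il4ra: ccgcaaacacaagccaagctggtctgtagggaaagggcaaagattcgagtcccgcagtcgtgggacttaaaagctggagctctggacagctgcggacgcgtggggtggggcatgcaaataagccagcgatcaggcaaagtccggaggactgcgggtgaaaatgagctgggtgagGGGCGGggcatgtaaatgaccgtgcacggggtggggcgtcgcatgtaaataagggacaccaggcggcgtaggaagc
These windows are chr16:91372533-91372782, chr16:91484965-91485214, chr16:91546809-91547058 and chr7:125552021-125552270. The Ifnar2 window held 1 match, to the GAS letters at positions -214 to -206, and 11 CG dinucleotides at 54.0% GC. The Ifnar1 window held 2 GC boxes and 19 CG dinucleotides at 65.6% GC, and the Ifngr2 window held 4 GC boxes, a pair of which overlap by 1 base, 1 match to the NF-kB letters and 25 CG dinucleotides at 74.0% GC. The Il4ra window held 1 GC box and 17 CG dinucleotides at 59.6% GC. In the 37 promoters found for 32 of the 38 receptor genes, 14 held the GC box (32.7% of all 32851 promoters of that length did), 4 the AP-1 letters (6.75%), 5 the GAS letters (7.02%) and 3 the NF-kB letters (1.41%). Their median GC content was 52.8%, against 52.4% for all promoters. A match describes the letters of the window and is no evidence of binding.

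Among the other class II receptors, Il22ra2 is a soluble protein that binds and blocks IL-22, and Il10ra is the ligand-binding chain for IL-10. Il22ra2 had 6.41, 7.96, 7.43 and 7.16 in the 2 h samples, against 5.75, 7.29, 8.07 and 9.03 in the non-wounded samples, a difference of -0.29 (interval -1.93 to 1.35). The non-wounded sample numbered 4 was the highest and the one numbered 1 the lowest of all 8, and the 2 h samples lay between them. Il10ra averaged 4.10 ± 0.29 at 2 h and 4.10 ± 0.29 in non-wounded samples (SD, n = 4 each).

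The receptors built on or related to the common gamma chain included small differences of opposite sign for the chains of IL-4 and IL-15, which passed with array weights but not without weights, with the block or in the samples numbered 2 to 4. Of these 12 probe sets of 10 genes, 7 were higher and 5 lower at 2 h with a median of 0.05, and the split was 4 higher and 8 lower after all samples were scaled to a common median and SD. Il4ra, the alpha chain shared by the receptors of IL-4 and IL-13, had 4.76, 4.52, 4.65 and 4.81 in the 2 h samples, against 4.66, 4.19, 4.21 and 4.17 in the non-wounded samples. Within the samples numbered 2 to 4 the groups did not overlap, but the non-wounded sample numbered 1 lay within the range of the 2 h samples. The difference was 0.38 (1.3-fold, interval -0.06 to 0.82, limma adjusted p = 0.998), and 0.47 in the samples numbered 2 to 4 (limma adjusted p = 0.0573), with a limma adjusted p of 0.0131 with array weights. Il4ra was higher in 4 of 4 same-numbered pairs, as were Ifnar2, Il17rd and Il23r, which makes 4 of 45 receptor probe sets against 13.4% of all.

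Il15ra, which holds IL-15 on the surface of one cell and presents it to another, has 2 probe sets. NM_133836.1_psr1_a_at had 5.91, 6.04, 5.81 and 5.67 in the 2 h samples, against 6.15, 6.24, 6.33 and 6.32 in the non-wounded samples. Every 2 h sample lay under every non-wounded sample, the one such case among the 45 (2.73% of all probe sets). The difference was -0.40 (1.32-fold lower, interval -0.91 to 0.11), with a limma adjusted p of 0.998 over all samples, 0.103 in the samples numbered 2 to 4 and 0.0258 with array weights. The other probe set, NM_008358.1_psr1_a_at, had 5.66, 5.05, 4.91 and 4.96 in the 2 h samples, against 6.14, 4.98, 5.25 and 5.27 in the non-wounded samples, and its groups overlapped, with a difference of -0.26. The ligand gene Il15 averaged 4.36 ± 0.56 at 2 h and 5.13 ± 0.69 in non-wounded samples (SD, n = 4 each), a difference of -0.78 that did not pass either (limma adjusted p = 0.998, and 0.122 with the block).

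Il2rg, the common gamma chain itself, had 6.70, 5.80, 6.25 and 6.46 in the 2 h samples, against 6.95, 6.30, 6.32 and 6.36 in the non-wounded samples, a difference of -0.18 (interval -0.73 to 0.36). The non-wounded sample numbered 1 was the highest, and the 2 groups overlapped. Il13ra1 differed by -0.17 with an interval of -2.36 to 2.01, and its number 1 samples lay far from the rest in both groups. The other chains of this group had differences between -0.05 and 0.18: Il2ra (alpha chain for IL-2), Il2rb (beta chain for IL-2 and IL-15), Il7r, Il9r, the IL-13 decoy Il13ra2 and both probe sets of Il21r.

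The receptors that use gp130 had their largest difference in Il11ra2, an alpha chain for IL-11. Il11ra2 had 6.43, 7.99, 7.65 and 7.99 in the 2 h samples, against 7.20, 8.86, 8.27 and 8.53 in the non-wounded samples. Each 2 h sample was lower than the non-wounded sample of its number (4 of 4 pairs), while the groups overlapped, and the number 1 samples were the lowest in both. The difference was -0.70 (1.62-fold lower, interval -1.89 to 0.49, limma adjusted p = 0.998), and -0.34 without the 2 h sample numbered 1. It had the lowest adjusted p of the receptors with the replicate block (limma adjusted p = 0.0529), and in the samples numbered 2 to 4 it was -0.68 (limma adjusted p = 0.113). Mouse Il11ra2 is nearly identical to Il11ra1, and the probe set is of a kind that can match related transcripts, so the signal cannot be assigned to 1 of these genes.

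Il6st (gp130), the signalling chain for IL-6, IL-11 and their relatives, had 4.82, 7.58, 7.23 and 7.66 in the 2 h samples, against 5.38, 7.67, 7.61 and 7.52 in the non-wounded samples. In the samples numbered 2 to 4 it lay between 7.23 and 7.67 in both groups, with a difference of -0.11. Il6ra, the IL-6 binding chain, has 3 probe sets. Of these, NM_010559.2_psr1_at had 5.48, 5.37, 5.38 and 5.62 in the 2 h samples, against 5.52, 5.15, 5.29 and 5.02 in the non-wounded samples, a difference of 0.22 (interval -0.15 to 0.58). The remaining ones differed by -0.0012 and -0.07. The IL-31 chain Il31ra averaged 4.60 ± 0.32 at 2 h and 4.38 ± 0.13 in non-wounded samples (SD, n = 4 each).

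Il27ra, the chain specific to IL-27, differed between the 2 kinds of samples. It had 4.87, 3.57, 3.58 and 3.60 in the 2 h samples, against 3.69, 3.66, 3.37 and 3.42 in the non-wounded samples, with 4.85 and 3.54 at 30 min. The pair numbered 1 was thus higher by 1.18 at 2 h and by 1.16 at 30 min, whereas the samples numbered 2 to 4 differed by 0.10 at 2 h and 0.06 at 30 min. Over all samples the 2 h difference was 0.37 (interval -0.43 to 1.17). Across the 45 receptor probe sets, the sign at 2 h was the same in the pair numbered 1 and in the samples numbered 2 to 4 for 27, against 60.3% of all probe sets.

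**Figure D2:**
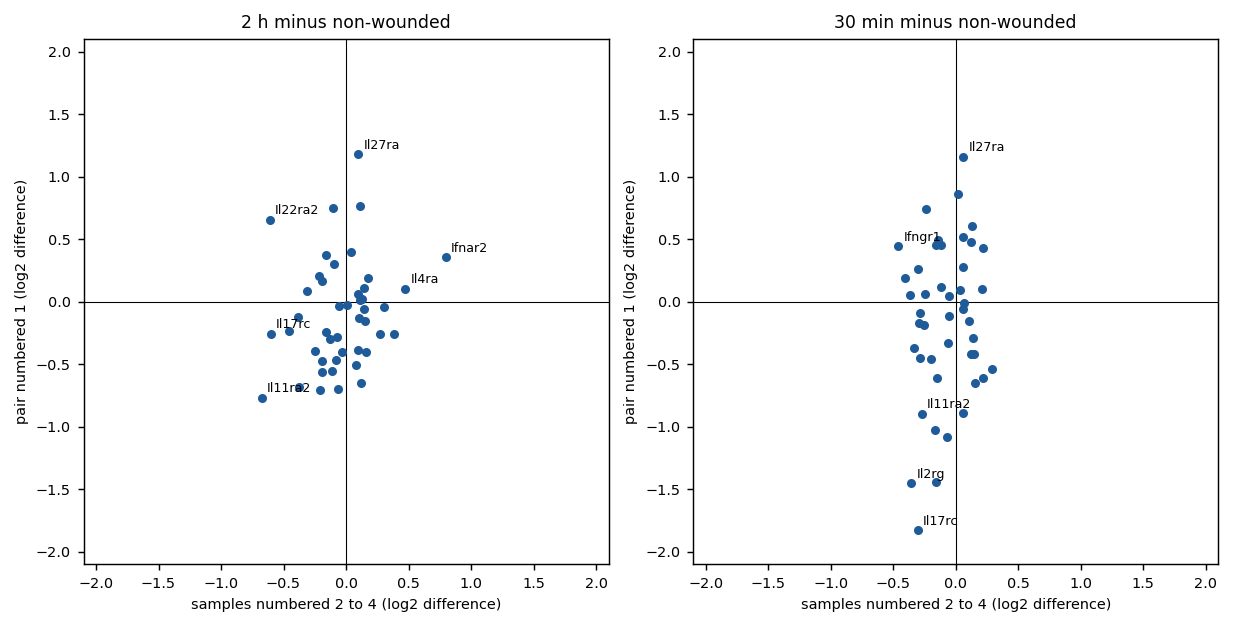
Log2 difference from non-wounded of each of the 45 receptor probe sets in the samples numbered 2 to 4 (x axis) and in the pair numbered 1 (y axis), at 2 h (left) and at 30 min (right); each point is 1 probe set. Il27ra is the highest point on the y axis in both panels, and at 30 min the pair numbered 1 spreads down to -1.83 (Il17rc).

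The IL-12 and IL-23 receptors, whose shared chain is Il12rb1, had means under the table's median in all 3 genes. Il12rb2, the second IL-12 chain, had 2.67, 2.66, 2.79 and 2.76 in the 2 h samples, against 3.38, 2.74, 2.87 and 3.23 in the non-wounded samples, a difference of -0.33 (interval -0.86 to 0.19). Il12rb1 had 4.15, 3.76, 3.96 and 4.13 in the 2 h samples, against 4.43, 4.11, 3.96 and 4.01 in the non-wounded samples, a difference of -0.13. Il12rb2 was lower in 4 of 4 same-numbered pairs but its lowest non-wounded value lay within the range of the 2 h samples. Il23r, specific to IL-23, averaged 2.56 ± 0.20 at 2 h and 2.47 ± 0.25 in non-wounded samples (SD, n = 4 each). Of the alpha chains that pair with the beta common chain, Il3ra (for IL-3) differed by -0.22 and Il5ra (for IL-5) by 0.09.

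In the IL-1 receptor family, both probe sets of Il1rap, the accessory chain that the IL-1, IL-33 and IL-36 receptors share, were lower at 2 h in 4 of 4 same-numbered pairs. NM_134103.1_psr1_at had 2.96, 3.01, 3.08 and 3.03 in the 2 h samples, against 3.36, 3.08, 3.38 and 3.40 in the non-wounded samples. The 2 h samples lay close together and only the highest of them overlapped, with the non-wounded sample numbered 2. The difference was -0.28 (1.22-fold lower, interval -0.61 to 0.04, limma adjusted p = 0.998, 0.369 with the block and 0.029 with array weights). NM_008364.1_psr1_at had 3.21, 2.57, 2.64 and 2.66 in the 2 h samples, against 3.33, 2.74, 2.94 and 3.33 in the non-wounded samples, a difference of -0.32 (interval -0.78 to 0.15, limma adjusted p = 0.998, and 0.0434 with array weights). Both of these probe sets had means under the table's lower quartile. In all, 6 of 45 receptor probe sets of 5 genes were lower in every same-numbered pair (Il11ra2, Il12rb2, Il15ra, Il17re and Il1rap), against 11.6% of all probe sets.

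Il1r1, the signalling receptor of IL-1, had 5.04, 6.10, 5.81 and 5.86 in the 2 h samples, against 5.50, 5.83, 6.18 and 6.01 in the non-wounded samples, a difference of -0.18 (interval -0.85 to 0.50). The 2 groups overlapped. Il1rl2, the receptor of IL-36, differed by -0.13. The IL-33 receptor Il1rl1 differed by 0.13 and -0.07 in its 2 probe sets. The IL-18 chains Il18r1 and Il18rap differed by -0.03 and 0.09, and Il1rapl2, a relative of the accessory chain, by 0.04. Of the 9 probe sets of this family 3 were higher and 6 lower, with a median of -0.07. The split was 4 higher and 5 lower in the samples numbered 2 to 4, with a median of -0.03 (0.03 over all probe sets). After all samples were scaled to a common median and SD 9 of 9 were lower, with a median of -0.20. That scaling also moved the median of all probe sets to -0.06 and the receptors' split to 11 higher and 34 lower; it was 18 higher (54.5% of all probe sets were higher) and 27 lower as deposited.

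Among the IL-17 receptors, Il17rc pairs with Il17ra to bind IL-17A and IL-17F. Il17rc had 10.30, 8.53, 8.42 and 8.97 in the 2 h samples, against 10.56, 9.76, 9.16 and 8.80 in the non-wounded samples. Apart from the number 1 samples, which were the highest of both groups, the non-wounded values overlapped with 1 of the 2 h values only, that of the sample numbered 4. The difference was -0.52 (interval -1.58 to 0.55), and -0.60 in the samples numbered 2 to 4 (limma adjusted p = 0.28). Leaving out 1 sample moved it to between -0.93 (without the 2 h sample numbered 1) and -0.19 (without the non-wounded sample numbered 1), and without the 2 h sample numbered 2 or 3 it was -0.34 or -0.31. Il17re, the chain for IL-17C, was measured by NM_001034029.1_psr1_s_at with 6.66, 6.64, 6.51 and 6.76 in the 2 h samples, against 7.34, 6.74, 6.86 and 7.43 in the non-wounded samples, a difference of -0.45 (interval -0.99 to 0.09). It was lower at 2 h in 4 of 4 pairs, but the highest 2 h value overlapped the lowest non-wounded one. Its other probe set, NM_145826.5_psr1_s_at, had 5.20, 6.77, 6.81 and 7.37 in the 2 h samples, against 5.76, 7.41, 6.96 and 7.17 in the non-wounded samples, a difference of -0.29.

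Il17ra, the chain shared by this family, had 4.89, 5.09, 5.19 and 5.03 in the 2 h samples, against 4.14, 4.57, 5.37 and 5.69 in the non-wounded samples, a difference of 0.11 with overlapping groups. Il17rb, the receptor of IL-25, differed by -0.10, and Il17rd, which can join Il17ra and is also known as a regulator of FGF signalling, by 0.27. Of the 6 probe sets of the family 2 were higher and 4 lower, with a median of -0.20 as deposited and of -0.18 after scaling.

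**Figure D3:**
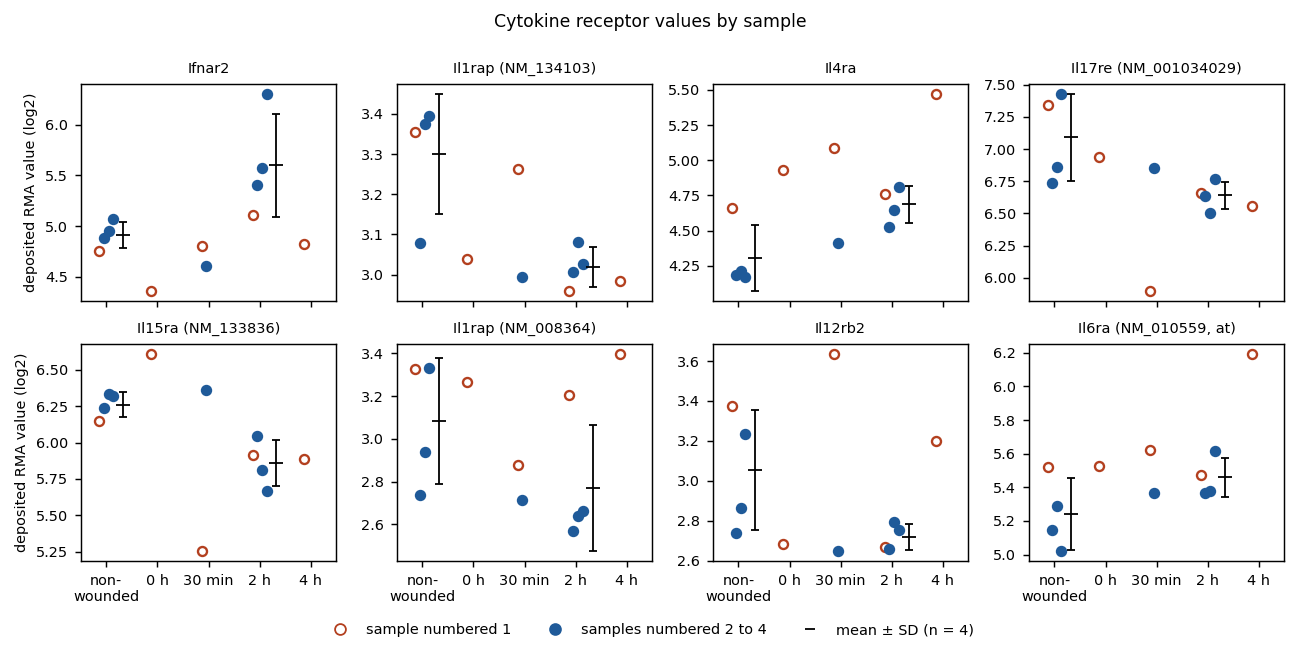
Deposited log2 value (y axis, a separate scale in each panel) of the 8 receptor probe sets with the smallest p at 2 h against non-wounded, in each sample by time (x axis); open circles are the samples numbered 1, filled ones those numbered 2 to 4, and bars give the mean ± SD of the groups of 4. The 2 h samples of Ifnar2 lie above the non-wounded ones and those of Il15ra NM_133836 below them, and the remaining panels overlap.

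The 30 min samples were compared with the non-wounded ones to cover the earliest response, with 2 samples, numbered 1 and 2, against 4. None of the 45 receptor probe sets passed (limma, 0.0% of all probe sets passed), and 2 of 45 had an unadjusted p under 0.05, against 5.06% of all; with the replicate block it was 5 of 45, all of them lower, against 10.9% of all in either direction and 8.03% lower. The receptor median was -0.04, against 0.04 over all probe sets. The intervals were wider than at 2 h: 27 of 45 lay within 2-fold either way, against 48.3% of all. In 4 of 45 probe sets both 30 min samples lay under all non-wounded samples (Il2rg, Ifngr2, Il17rb and Il3ra), against 5.14% of all, and in 0 of 45 above them, against 2.49%.

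Il2rg had 5.49 and 5.97 at 30 min, against 6.95, 6.30, 6.32 and 6.36 in non-wounded samples. The difference was -0.75 (1.68-fold lower, interval -1.42 to -0.09, limma adjusted p = 0.735, and 0.432 with the block). It was -1.45 in the pair numbered 1, and -0.36 for the sample numbered 2 against the non-wounded samples numbered 2 to 4. Ifngr2 had 5.48 and 6.18 at 30 min, against 6.50, 6.58, 6.21 and 6.23 in non-wounded samples, a difference of -0.55 (interval -1.15 to 0.05). Here too the sample numbered 1 lay far under its non-wounded counterpart (-1.02) and the sample numbered 2 close to the others (-0.16).

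The IL-17 receptors had a median difference of -0.65 at 30 min with 5 of 6 probe sets lower, against a median of 0.04 over all probe sets. After scaling it was -0.37 with 6 of 6 lower, against -0.09 over all. In the samples numbered 2 to 4 alone their median was -0.27, with 6 of 6 lower, against -0.01 over all. There 30 min is the single sample numbered 2, so these settings share samples and are no separate evidence. Il17re NM_001034029.1_psr1_s_at had 5.90 and 6.85 at 30 min, against 7.34, 6.74, 6.86 and 7.43 in non-wounded samples, a difference of -0.72 (interval -1.38 to -0.05, limma adjusted p = 0.735). Il17rc had 8.74 and 8.94 at 30 min, against 10.56, 9.76, 9.16 and 8.80 in non-wounded samples, a difference of -0.73 (interval -2.04 to 0.57). In the pair numbered 1 the differences were -1.44 for this Il17re probe set and -1.83 for Il17rc. With the samples numbered 2 to 4 alone they were -0.16 and -0.30. For these 2 probe sets the difference was larger in the pair numbered 1. The other Il17re probe set, NM_145826.5_psr1_s_at, had 5.39 and 6.85 at 30 min, against 5.76, 7.41, 6.96 and 7.17 in non-wounded samples. Its difference was -0.71, and both 30 min samples were lower than the non-wounded sample of their number. Il17ra had 3.69 and 5.01 at 30 min, and its difference was -0.60 (interval -1.63 to 0.44).

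Il6st was the 1 receptor probe set with a difference of at least 1 at 30 min (-1.13, interval -3.53 to 1.26), against 4.17% of all probe sets. With the replicate block its difference was -0.56, and the 1 receptor probe set at 1 or more was Il17rc (-1.21), against 2.41% of all. The Il6st values at 30 min were 4.29 and 7.53, so the sample numbered 1 was the lowest of all Il6st values and the sample numbered 2 lay with the non-wounded samples of its kind (difference -0.07). Il11ra2 had 6.30 and 8.28 at 30 min, a difference of -0.92 (interval -2.39 to 0.54), or -0.68 with the replicate block (limma adjusted p = 0.432). Il15ra NM_133836.1_psr1_a_at had 5.25 and 6.36, and the 30 min samples lay on either side of the non-wounded range. Il4ra had 5.09 and 4.41, each higher than the non-wounded sample of its number, a difference of 0.44 (interval -0.10 to 0.98). Ifnar2 had 4.81 and 4.60, a difference of -0.21 (interval -0.88 to 0.46), with 1 sample inside and 1 under the non-wounded range.

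Il12rb1 had 4.89 and 3.86 at 30 min, and Il12rb2 had 3.64 and 2.65, so for both chains the sample numbered 1 lay above the non-wounded range and the sample numbered 2 under it. Il1rap had 2.88 and 2.71 at 30 min in NM_008364.1_psr1_at and 3.26 and 2.99 in NM_134103.1_psr1_at. In each of these probe sets both samples were lower than the non-wounded sample of their number. Il6ra NM_010559.2_psr1_at had 5.62 and 5.37, each higher than the non-wounded sample of its number. Ifngr1 had 7.18 and 8.06, Il13ra1 had 5.06 and 8.15, and Il22ra2 had 5.74 and 8.20. For these 3 bright receptors the sample numbered 1 was again the lower one.

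Between 2 h and 30 min, 0 of 45 receptor probe sets passed (limma, 0.0% of all passed), and 1 of 45 had an unadjusted p under 0.05, against 2.17% of all. That was Ifnar2, with a difference of 0.89 (1.86-fold, interval 0.23 to 1.56, limma adjusted p = 0.965, and 0.726 with the block). All 4 values at 2 h exceeded both at 30 min for Ifnar2 and Il17rd, which makes 2 of 45 against 3.77% of all. This comparison shares its samples with the others, so it is no separate evidence on Ifnar2. Il17ra differed by 0.70 (interval -0.33 to 1.74), which was 0.039 without the 30 min sample numbered 1 and 1.36 without the one numbered 2. Il2rg differed by 0.57 (interval -0.10 to 1.24), or 0.33 without the 30 min sample numbered 1. Of these 6 samples the 30 min sample numbered 1 was the lowest for both genes. Il12rb1 and Il12rb2 differed by -0.38 and -0.42, but by 0.09 and 0.09 in the samples numbered 2 to 4.

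The single samples at 0 h and 4 h are best set beside the non-wounded sample numbered 1, and they allow no test. At 0 h, 0 of 45 receptor probe sets differed from it by 1 or more, against 0.883% of all probe sets. At 4 h, 1 of 45 did, against 11.8% of all, and this was Il27ra with 4.94 at 4 h, against 3.69 in the non-wounded sample numbered 1. At 0 h, 12 of the 45 receptor probe sets lay above the range of the 4 non-wounded samples and 10 under it. At 4 h these counts were 17 and 13. No share over all probe sets was computed for these counts, so they cannot be read as a trait of the receptors. The 0 h and 4 h samples are numbered 1, whereas that range rests mostly on samples of the other kind. Ifnar2 had 4.36 at 0 h and 4.83 at 4 h, against 4.76 in the non-wounded sample numbered 1. Il4ra had 4.93 at 0 h and 5.48 at 4 h, both above all 4 non-wounded samples, and the 4 h value was the highest of the 12 samples. Il6ra NM_010559.2_psr1_at reached 6.19 at 4 h, also the highest of its 12 values. Il2rg was 6.01 and Il17ra 3.23 at 4 h, each under the non-wounded range. At 0 h Il2rg was 6.31, Il17ra 3.84 and Il6ra NM_010559.2_psr1_at 5.53.

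The other receptors given by sample stayed within 1 log2 unit of the non-wounded sample numbered 1 at both times. Ifngr1 had 6.25 at 0 h and 6.59 at 4 h, and Ifngr2 had 5.58 and 6.11. Il13ra1 had 5.51 at 0 h and 5.93 at 4 h, and Il22ra2 had 6.15 and 5.97. Ifngr1 and Ifngr2 were thus under their non-wounded range at both times, while Il13ra1 and Il22ra2 were inside it. Il11ra2 had 7.05 at 0 h and 6.65 at 4 h, both under the non-wounded range. Il12rb1 had 4.04 at 0 h and 3.59 at 4 h, and Il12rb2 had 2.69 and 3.20. Il15ra NM_133836.1_psr1_a_at had 6.61 at 0 h and 5.89 at 4 h, on either side of the non-wounded range. Il17rc had 10.33 at 0 h and 10.01 at 4 h, and Il17re NM_001034029.1_psr1_s_at had 6.94 and 6.55. Il1rap had 3.27 at 0 h and 3.40 at 4 h in NM_008364.1_psr1_at, and 3.04 and 2.98 in NM_134103.1_psr1_at, so its probe sets lay on opposite sides of the non-wounded range at 4 h.

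Of the 38 receptor genes, 20 lie in 8 sets of direct neighbours in the gene order of GRCm38.p6, counting the left-out receptor genes as neighbours too. On chromosome 16 the differences at 2 h were 0.69 for Ifnar2, -0.03 for Ifnar1 and -0.21 for Ifngr2. In the row of 5 members on chromosome 1 (Il1r1, Il1rl2, Il1rl1, Il18r1 and Il18rap) they lay between -0.18 and 0.13. Il17re and Il17rc, neighbours on chromosome 6, differed by -0.45, -0.29 and -0.52. On chromosome 7 Il4ra differed by 0.38 and Il21r by 0.08 and 0.02. None of these passed without weights, with the block or in the samples numbered 2 to 4, Ifnar2 and Il4ra passed with array weights, and no test was made of likeness between neighbours.

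**Figure D4:**
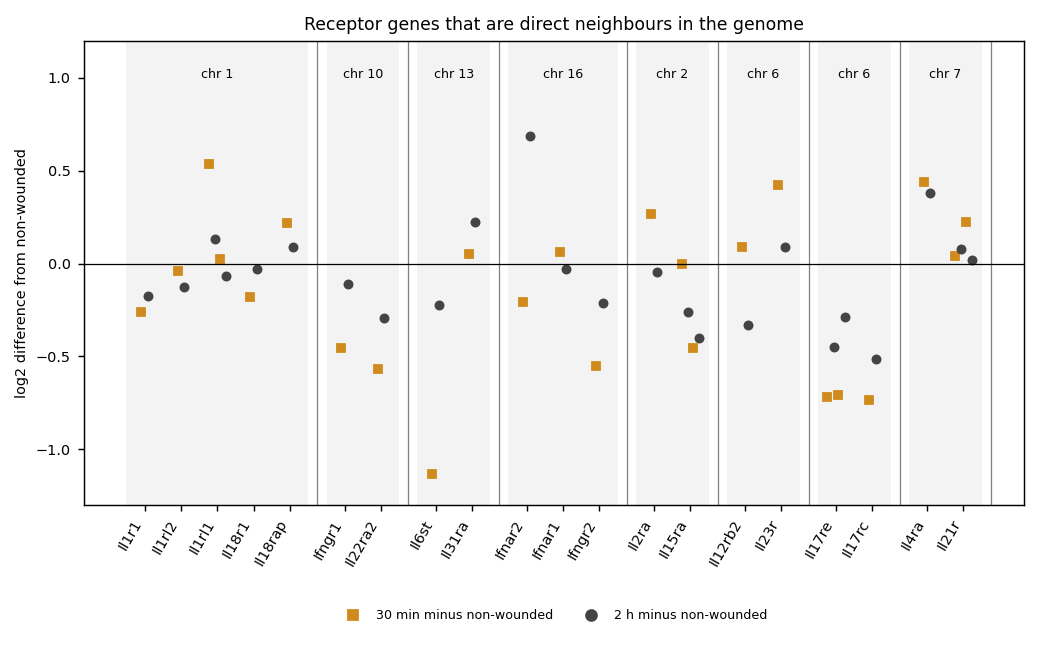
Log2 difference from non-wounded (y axis) at 30 min (squares) and 2 h (circles) for the 20 receptor genes that are direct neighbours, in gene order and grouped by chromosome (x axis); a gene with several probe sets has a symbol for each. Ifnar2 stands at 0.69 at 2 h beside Ifnar1 at -0.03, and the points of Il17re and Il17rc all lie under 0.

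Of 59 listed ligands of these receptors 30 were measured, and 0 of them passed at 2 h or 30 min (limma, without or with the block). Of all probe sets 0.241% passed at 2 h (1.36% with the block) and 0.0% at 30 min. At 2 h 17 ligands were higher and 13 lower, with a median of 0.02 (54.5% of all higher, median 0.03). At 30 min 22 were higher and 8 lower, with a median of 0.28 (53.8% of all higher, median 0.04). In the samples numbered 2 to 4 the 30 min median was 0.10, against -0.01 over all probe sets. The alarm cytokine Il1b averaged 4.96 ± 0.64 at 2 h and 3.71 ± 0.25 in non-wounded samples (SD, n = 4 each), a difference of 1.26 (limma adjusted p = 0.354). Il6 averaged 3.41 ± 0.51 at 2 h and 2.39 ± 0.28 in non-wounded samples, a difference of 1.01 (limma adjusted p = 0.354). The IL-36 ligand Il1f9 averaged 5.13 ± 0.54 at 2 h and 6.02 ± 0.56 in non-wounded samples, a difference of -0.89 (limma adjusted p = 0.876). With the replicate block the limma adjusted p was 0.0987 for Il1b, 0.104 for Il6 and 0.355 for Il1f9. In the samples numbered 2 to 4 their differences were 1.51, 1.23 and -0.88 (limma adjusted p = 0.074, 0.0812 and 0.265). The receptors of these ligands (Il1r1 and Il1rap, Il6ra and Il6st, Il1rl2) had differences of -0.32 to 0.22 at 2 h.

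Markers of other skin and blood cells were examined beside these values. At 2 h, 7 of 7 probe sets of dermal fibroblast markers and 3 of 3 of endothelial markers were higher, with medians of 0.16 and 0.16. So were 7 of 8 of neutrophil markers and 4 of 5 of monocyte markers, with medians of 0.20 and 0.18. Over all probe sets 54.5% were higher at 2 h, with a median of 0.03. No probe set of these lists passed at 2 h (limma, without or with the block). The mean level over the fibroblast markers was 3.75 to 4.09 in the 2 h samples and 3.55 to 3.79 in non-wounded samples, and over the neutrophil markers 4.25 to 4.30 and 3.98 to 4.16. Of 5 probe sets of Langerhans cell and antigen presentation markers 4 were higher, with a median of 0.09; the brighter of them, Cd74 and Cd207, differed by -0.11 and 0.91. The Langerhans cell lectin Cd207 averaged 8.78 ± 0.74 at 2 h and 7.86 ± 0.63 in non-wounded samples (SD, n = 4 each), and passed with the block (limma adjusted p = 0.0448) but not without it (0.998). Cd83, a marker of mature dendritic cells picked here after its values were seen, had the largest difference of the 5, with 5.64 ± 0.98 at 2 h and 4.14 ± 0.27 in non-wounded samples (SD, n = 4 each, limma adjusted p = 0.354), and a difference of 1.97 in the samples numbered 2 to 4 (limma adjusted p = 0.0104). At 30 min 7 of 7 fibroblast and 3 of 3 endothelial probe sets were higher, with medians of 0.32 and 0.18, as were 5 of 8 neutrophil, 3 of 5 monocyte and 2 of 5 Langerhans cell probe sets, with medians of 0.26, 0.09 and -0.36. In the samples numbered 2 to 4 these 5 medians were 0.16, 0.13, 0.08, -0.03 and -0.11. At 30 min 53.8% of all probe sets were higher, with a median of 0.04 over all samples. No marker probe set passed at 30 min (limma, without or with the block). The part of these cells in the receptor values was not tested.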

How the data were processed

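Total RNA was extracted with Trizol and labelled with biotin as cRNA, per the labels' protocols. The deposited values are log2 values of 1246 probe sets in 12 samples, made by the authors with RMA, per the submitters' processing notes; they run from 1.76 to 13.3. RMA corrects background, normalizes between arrays and summarises probes, and it gives no detection call. For the array design, hybridisation batches and filters no source used here gives details. Precision is limited by how few arrays each group has.

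Probe set accessions were matched without versions to a RefSeq gene table (GRCm38.p6): 963 probe sets matched 1 symbol and 283 are unnamed here. Of the receptor probe sets, 12 are of kinds (a, s or x) that can share probes with related transcripts. The receptors and the gene lists were chosen with earlier results of these data known. Of the lists, 0 of 36 genes of signalling below the receptors and 0 genes of the TNF receptor lists were among the named probe sets used here.

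limma 3.58.1 (R 4.3.3) was fitted to all probe sets and all 12 samples with group means, and p-values were adjusted over 1246 probe sets by the Benjamini-Hochberg method (two-sided, threshold 0.05). Nothing states that replicates are separate animals, so a p-value here covers only sample-to-sample spread, possibly technical. The replicate numbers were taken from the titles. Deviations of same-numbered 2 h and non-wounded samples correlated at 0.796, 0.449, 0.651 and 0.297 for numbers 1 to 4, over the limit of 0.1, so blocked values are given; without number 1 the correlations were -0.15, 0.0727 and -0.319. The fits were tested on simulated data.

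Values in every sample were given for 17 probe sets: the receptors with the smallest p in each comparison and in the blocked 2 h fit, and the 6 with the highest mean. Every receptor gene was named in its family, and further values were shown for genes chosen after their values were seen (Ifnar1, Il1r1, Il6st, Il27ra and second probe sets). Alternatives were the replicate block, other scalings, a filter on low values, an intensity trend, array weights, the 2 groups alone, 1 probe set per gene and leaving out each sample. Python 3.11.15 and matplotlib 3.10.9 were used for the figures.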

Additional observations from a re-analysis of the deposited data

Results flagged for a closer look

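In 5 of 34 groups of 4 examined for the named probe sets, 1 sample lay apart from the other 3 by most of the group's range (Dixon's criterion at 95%). For independent samples of 1 kind, chance gives this in about 1 in 20 groups. The groups here share the same samples, which are of 2 kinds, and no share over all probe sets is given. In 4 of the 5 flagged groups the sample lying apart was numbered 1. Il13ra1 had its lowest 2 h value in the sample numbered 1, at 4.91. Il1rap NM_008364.1_psr1_at had its highest 2 h value in the sample numbered 1, at 3.21. Among the non-wounded samples, the sample numbered 1 was the highest for Il4ra, at 4.66, and for Il2rg, at 6.95. Il1rap NM_134103.1_psr1_at was lowest in the non-wounded sample numbered 2, at 3.08. Over all 45 receptor probe sets 17 of 90 groups had such a sample.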

How the results depend on the processing

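Of the alternatives, array weights made 5 of 45 receptor probe sets pass at 2 h, against 10.4% of all. The limma adjusted p was then 0.029 for Ifnar2 and 0.0131 for Il4ra, the lowest. Leaving out the 30 min sample numbered 2 leaves 1 sample in that group, and Il15ra NM_133836 then differed by -1.005 at 30 min. The count of receptors with an unadjusted p under 0.05 at 2 h (1 as given), with the share of all probe sets in brackets, was 3 with the replicate block (13.8%), 8 in the samples numbered 2 to 4 (18.5%), 3 after quantile normalization (5.46%), 2 after scaling to one median and SD (5.7%), 5 with both block and scaling (11.4%, added after seeing the data), 13 with array weights (26.6%), 4 with only the 2 groups compared (6.26%), and 1 to 3 with 1 sample left out (5.14% for the 3). At 30 min (2 as given) it was 5 with blocked numbers (10.9%), 1 for numbers 2 to 4 alone (4.41%), 4 after centring (6.42%), 0 with an intensity trend (3.61%), 0 with array weights (2.73%), 1 with only the 2 groups (2.89%), and 0 to 14 with 1 sample left out, the 14 (31.1% of 45, against 30.5% of all) without the 30 min sample numbered 2. Between 2 h and 30 min (1 as given) it was 3 in the samples numbered 2 to 4 (5.14%), 0 with array weights (1.36%), and 1 to 10 with 1 sample left out, the 10 (22.2% of 45 and of all) again without that sample. The replicate block changed no call on an adjusted p. Some named probe sets changed sign, and no value of the opposite sign passed. Ifngr1 at 2 h was 0.064 after quantile normalization, 0.0049 after scaling (with or without the block) and -0.56 to 0.23 with 1 sample left out; that last range was -0.88 to 0.58 for Il13ra1 and -0.89 to 0.20 for Il22ra2. Il15ra NM_133836 at 30 min was 0.061 in the samples numbered 2 to 4 and -1.005 to 0.10 with 1 sample left out. Between 2 h and 30 min, Il12rb1 was 0.085 in the samples numbered 2 to 4 and -0.89 to 0.14 with 1 left out, and Il12rb2 was 0.089 and -0.92 to 0.072. Leaving out 1 sample moved 15 of 23 named differences by over 1.5 times or turned them. At 30 min the range was -0.90 to -0.21 for Ifngr2, -1.19 to -0.24 for Il17re and 0.10 to 0.78 for Il4ra, and at 2 h Il6ra was 0.14 without the non-wounded sample numbered 4. The cause of these changes was not tested. The remaining 390 values of named probe sets kept sign and side of the threshold. With 30 min at 2 samples, 1 of each kind, its values rest on either sample alone, and leaving out 1 assumes that the other varies like the remaining groups.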
